A study of Rattus norvegicus with 2 samples.

Results

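The Notch genes examined here are 3 receptors (Notch1, Notch2, Notch3), 2 ligands (Jag1, Dll4), the DNA-binding partner Rbpj and 4 target genes (Hes1, Hey1, Hey2, Heyl). They were taken by symbol, and 10 of 10 were found among the 32623 genes in the count table. Levels were read in cell classes set by marker genes, in 1 library of each group. The control group was the uninjured left carotid artery and the case group the right carotid artery of the same male Sprague-Dawley rats, taken 28 days after balloon injury, in which an inflated catheter strips the endothelium and stretches the wall. The label gives an age of 12 weeks. The methods state a younger age at the start, and the arteries were taken 28 days after injury, so label and methods need not conflict. Each library pooled arteries of 2 rats, so the animals cannot be told apart, and with 1 library per group there is no replicate check and no test. Intervals below are exact 95% intervals that cover counting error only.

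Notch receptors are single-pass membrane proteins that meet ligands of the Jagged and Delta families on neighbouring cells. Ligand binding exposes the receptor to cleavage, the intracellular domain enters the nucleus, and with RBPJ it turns on genes of the HES and HEY families, which encode transcriptional repressors. In arteries the pathway is known for smooth muscle differentiation, in which JAG1 on endothelium signals to NOTCH3 on muscle, and for arterial identity of endothelium, where DLL4, NOTCH1 and HEY2 act.

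RBPJ binds a core of the letters TGGGAA, and this motif was searched on both strands in the 250 bases before each start site, from RefSeq promoters in build GRCr8. Promoters were matched for 8 of 10 members, and those without one were Dll4 and Hey1. Of all 33469 promoters of this length, 22.1% held the motif at least once and 2.71% at least 2 times. Hes1 and Hey2 held it 2 times each, and Notch1, Notch2, Notch3, Jag1 and Heyl 0 times. Rbpj held it 1 or 2 times in its 2 windows, which overlap and share 1 of these matches. A match is a run of letters and not a measured binding site. The windows of Hes1 and Hey2 are shown because they were the members lower by 1.5-fold or more in endothelial-like cells of the case group. Notch1, with 0 matches, was also lower there, by under 1.5-fold, and its counting interval overlapped those of Hes1 and Hey2. In VSMC-like cells Hes1 was lower and Hey2 higher in the case group. The window of Heyl is shown as that of a target without the motif here. With 0 and 2 UMIs in endothelial-like cells, Heyl gives no contrast in the change. Whether the motif goes with a change was not tested. Capitals mark TGGGAA or its reverse complement TTCCCA.
Hes1 (GRCr8 chr11:84213046-84213295, minus strand): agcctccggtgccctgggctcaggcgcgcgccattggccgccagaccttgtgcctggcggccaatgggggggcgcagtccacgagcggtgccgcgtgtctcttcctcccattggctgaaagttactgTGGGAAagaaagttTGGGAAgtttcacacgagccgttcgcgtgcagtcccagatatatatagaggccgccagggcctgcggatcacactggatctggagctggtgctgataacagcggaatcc
Hey2 (GRCr8 chr1:28640850-28641099, plus strand): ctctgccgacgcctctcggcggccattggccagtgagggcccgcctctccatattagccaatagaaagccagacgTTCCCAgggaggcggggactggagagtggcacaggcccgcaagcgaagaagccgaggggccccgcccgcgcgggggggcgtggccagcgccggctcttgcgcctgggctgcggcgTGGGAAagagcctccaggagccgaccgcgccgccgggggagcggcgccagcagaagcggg
Heyl (GRCr8 chr5:140793021-140793270, plus strand): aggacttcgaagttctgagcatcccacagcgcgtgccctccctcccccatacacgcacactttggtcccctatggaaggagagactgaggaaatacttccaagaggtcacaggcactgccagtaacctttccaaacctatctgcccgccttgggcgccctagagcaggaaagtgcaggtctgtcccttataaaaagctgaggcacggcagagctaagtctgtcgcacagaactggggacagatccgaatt
In Hes1 both copies lie on the gene's strand and begin 123 and 109 bases before the start site, with 8 bases between them. In Hey2 they lie on opposite strands, 175 and 60 bases before the start site, with 109 bases between them.

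The control library held 24968329 unique molecular identifiers (UMIs, 1 per captured RNA molecule) in 3321 barcodes and the case library 28232614 in 5656. Among the 2229 control and 4890 case cells used, the median was 10919 and 5174 UMIs, so control cells were read more deeply. VSMC-like cells numbered 1203 in the control and 2650 in the case group, fibroblast-like cells 706 and 1443, endothelial-like cells 54 and 241, macrophage-like cells 42 and 108, and Schwann-like cells 18 and 43. Check genes that no gate used were highest in their own class in both libraries, such as Kdr, Tek, Esam, Ptprb and Egfl7 summing to 1479 and 1111 CPM (UMIs per 1000000 UMIs of the class) in endothelial-like cells and to 9.09 and 8.80 CPM in VSMC-like cells. The fibroblast check genes (Col1a1, Col3a1, Pi16, Clec3b) also summed to 3310 and 2917 CPM in VSMC-like cells, control before case. They summed to 1821 and 4879 in Schwann-like cells and to 35608 and 28240 in fibroblast-like cells. The background ratio below is of muscle RNA only, and none is given for fibroblast RNA in VSMC-like cells. RNA free in the suspension can enter the droplets of any cell. The 6 muscle check genes (Cnn1, Lmod1, Synpo2, Mylk, Smtn, Pln) stood at 3.37% to 9.43% of their VSMC level in the other classes, and a member at this ratio is read as background. The libraries share 21 barcode sequences, 5 of them among the cells used.

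Notch1, a receptor of arterial endothelium and many other cell types, was lowest in fibroblast-like cells in both libraries. In VSMC-like cells it stood at 68.4 CPM (64.1 to 73.0) in the control and 75.5 (71.2 to 80.0) in the case group. Fibroblast-like cells held 27.9 (24.4 to 31.8) and 51.1 (46.3 to 56.4). The endothelial-like cells held 224 (181 to 274) and 152 (130.1 to 177), the macrophage-like cells 217 (172 to 270.2) and 312 (268 to 362), and the Schwann-like cells 271 (175 to 400.0) and 225 (151 to 324). The last 3 classes lay above both others in both libraries. Among those 3 the intervals overlapped in the control group, while in the case group the macrophage-like interval lay above the endothelial-like one.

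Notch2 had another distribution. It was at 53.6 CPM (49.7 to 57.7) and 57.8 (54.1 to 61.8) in VSMC-like cells, control before case, and at 76.3 (70.5 to 82.6) and 96.6 (89.9 to 104) in fibroblast-like cells. Macrophage-like cells held 81.4 (54.9 to 116) and 119.6 (92.7 to 152), an interval that overlapped that of fibroblast-like cells in each library. In endothelial-like cells 3 UMIs in the control and 13 in the case group gave 7.23 (1.49 to 21.1) and 11.8 (6.28 to 20.2). This was 13.5% (2.78 to 39.6) and 20.4% (10.8 to 35.0) of the VSMC level, against 5.86% and 6.13% for the muscle check genes. The control value could thus not be told from background. Endothelial-like cells, with Notch1 well above that of VSMC-like cells, thus lay below VSMC-like cells in Notch2. Schwann-like cells held 3 and 7 UMIs of Notch2.

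Notch3, the receptor known for arterial smooth muscle, was found mainly in VSMC-like cells among the 5 classes. It had 129 UMIs in the control and 176 in the case group there, 9.69 CPM (8.09 to 11.5) and 11.6 (9.99 to 13.5). A Notch3 UMI was found in 9.81% of the control and 6.19% of the case cells of this class, and after each cell was thinned to 1000 UMIs in 1.17% and 1.25%. Fibroblast-like cells held 4 and 10 UMIs, at 5.01% (1.34 to 13.1) and 10.8% (5.08 to 20.3) of the VSMC level, against 4.07% and 4.50% for the muscle check genes. Endothelial-like cells held 0 UMIs in both libraries, which allows up to 7.23 and 2.72 CPM. Schwann-like cells also held 0, which allows up to 32.5 and 23.3 CPM, so their order against VSMC-like cells could not be read.

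**Figure D1:**
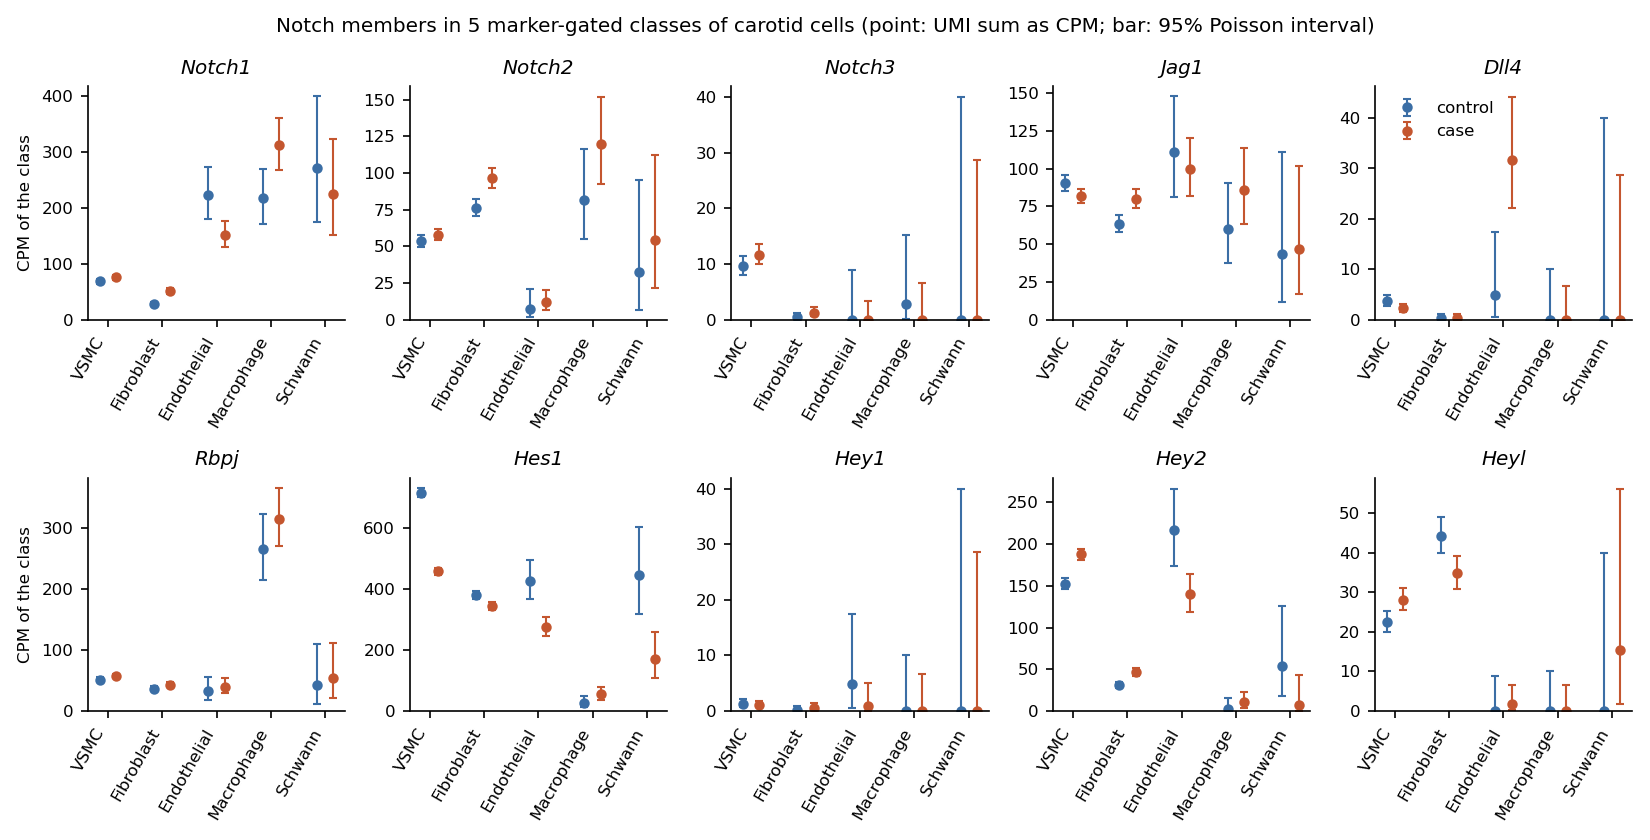
Level of each of the 10 members (CPM, linear axes from 0, each with its own scale) in 5 marker-gated classes, for the control library in blue and the case library in orange; points are UMI sums of the class and bars 95% Poisson intervals. Notch3 was found mainly in VSMC-like cells, Rbpj was highest in macrophage-like cells, and Hes1 in VSMC-like cells was 715 CPM in the control and 458 in the case library.

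Jag1, a ligand of the Jagged family, was present in each of the 5 classes. The values, control before case, were 90.2 CPM (85.2 to 95.5) and 81.6 (77.1 to 86.3) in VSMC-like cells and 63.5 (58.2 to 69.2) and 79.8 (73.7 to 86.2) in fibroblast-like cells. Endothelial-like cells held 111 (81.1 to 148) and 99.7 (82.0 to 120.2), macrophage-like cells 59.7 (37.4 to 90.4) and 85.7 (63.2 to 114), and Schwann-like cells 4 and 6 UMIs. In the case group the intervals of VSMC-like, fibroblast-like, endothelial-like and macrophage-like cells overlapped, so no order of these classes was detectable there.

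Dll4, the Delta-family ligand of arterial and sprouting endothelium, was sparse. Endothelial-like cells held 2 UMIs in the control and 35 in the case group, 4.82 CPM (0.583 to 17.4) and 31.7 (22.1 to 44.1), a ratio of 6.59 whose log2 was 2.72 (0.76 to 5.82). The 35 UMIs came from 23 of 241 cells. In VSMC-like cells Dll4 was at 3.76 (2.79 to 4.95) and 2.25 (1.56 to 3.14) from 50 and 34 UMIs. Macrophage-like and Schwann-like cells held 0 Dll4 UMIs in both libraries.

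Rbpj, which carries the Notch signal on DNA, was at 266 CPM (216 to 324) in control and 316 (271 to 366) in case macrophage-like cells. This was 515% and 550.4% of its VSMC level, which was 51.7 (47.9 to 55.7) and 57.4 (53.6 to 61.3). Fibroblast-like cells held 36.3 (32.3 to 40.6) and 43.5 (39.0 to 48.3), below VSMC-like cells in both libraries, and endothelial-like cells 33.7 (18.4 to 56.6) and 39.9 (29.0 to 53.5). Schwann-like cells held 4 and 7 UMIs. A Rbpj UMI was found in 85.7% of control and 66.7% of case macrophage-like cells, and after thinning in 23.2% and 24.4%.

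Among the targets, Hes1 was at 715 CPM (700.2 to 729) in control VSMC-like cells and at 458 (447 to 468) in those of the case group. It stood at 380.2 (367 to 394) and 343 (330.2 to 356) in fibroblast-like cells, at 426 (366 to 494) and 276 (245 to 308) in endothelial-like cells, and at 444 (319 to 603) and 171 (107 to 259) in Schwann-like cells. Macrophage-like cells were far below, with 10 and 31 UMIs or 27.1 (13.0 to 49.9) and 55.3 (37.6 to 78.5). In the control group this was 3.80% (1.82 to 6.99) of the VSMC level, near the 3.89% of the muscle check genes, and in the case group 12.1% (8.21 to 17.2) against 3.37%. Hes1 therefore stood near background in control macrophage-like cells and above it in those of the case group as gated here.

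Hey2, a repressor of arterial smooth muscle and endothelium, was at 153 CPM (146 to 159) and 188 (181 to 195) in VSMC-like cells and at 217 (174 to 266) and 141 (119 to 164) in endothelial-like cells. The order of these classes differed between libraries, with endothelial-like cells above VSMC-like cells in the control and below them in the case group. In the subset of endothelial-like cells without Plvap and Emcn, described below, Hey2 was at 225 CPM in the case group. That subset was thus not below VSMC-like cells, and the intervals overlapped. Fibroblast-like cells held 31.2 (27.5 to 35.3) and 46.4 (41.8 to 51.3), which was 20.4% (17.9 to 23.3) and 24.7% (22.1 to 27.6) of the VSMC level and above background. Macrophage-like cells held 1 and 6 UMIs, 1.78% (0.045 to 9.92) and 5.71% (2.09 to 12.4) of the VSMC level, and Schwann-like cells 5 and 1.

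Heyl had its highest value among the 5 classes in fibroblast-like cells, at 44.2 CPM (39.8 to 49.0) in the control and 34.8 (30.8 to 39.2) in the case group. VSMC-like cells held 22.5 (19.99 to 25.2) and 28.1 (25.5 to 30.9), and the intervals of the 2 classes touched in the case group. In endothelial-like cells 0 UMIs in the control and 2 in the case group were found, and in macrophage-like cells 0 in both. Schwann-like cells held 0 and 2 UMIs, with intervals up to 39.98 and 56.1 CPM. These reach the intervals of fibroblast-like cells, so the order of these 2 classes could not be read. Hey1 was at or under 5 UMIs in every class and library but VSMC-like cells, where 18 and 17 UMIs gave 1.35 and 1.13 CPM, and no difference in it could be read at this depth.

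The first comparison asks how the members differed between the injured and the normal artery within VSMC-like cells. Hes1 was lower in the case group by 1.56-fold, a log2 change of -0.64 (-0.69 to -0.60), and it was the 1 member past 1.5-fold of the 7 with a mean of at least 20 CPM. Of all 4758 genes at this level, 14.6% were lower by 1.5-fold or more and 6.09% higher, so 1 of 7 is close to the background. Hey2 and Heyl, the other targets, were higher by 0.30 (0.21 to 0.38) and 0.32 (0.11 to 0.54) in log2. Notch1 was at 0.14 (0.01 to 0.27), Notch2 at 0.11 (-0.03 to 0.26), Rbpj at 0.15 (0.00468 to 0.30) and Jag1 at -0.14 (-0.26 to -0.03). The median of all 4758 genes was -0.12, and relative to it Hes1 was at -0.52, Hey2 at 0.42, Heyl at 0.45 and Jag1 at -0.02. With TMM scaling, which assumes that most genes do not differ, Hes1 was at -0.51 and no longer past 1.5-fold. In cells of 3000 to 10000 UMIs (255 control and 2212 case cells) it was at -0.87, Jag1 at -0.49, Hey2 at 0.48 and Notch1 at 0.81, which was past 1.5-fold, and Notch2 at -0.05, so these values moved with the depth of the cells taken. Dll4, under the minimum level, was at -0.74 (-1.41 to -0.08).

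The share of cells with a UMI moved with depth. Hes1 was found in 78.5% (76.0 to 80.8) of control and 67.8% (66.0 to 69.6) of case VSMC-like cells, and after thinning to 1000 UMIs in 42.1% and 31.6%, against 19.0% and 22.2%, thinned 3.82% and 6.14%, of macrophage-like cells. Notch1 was found in 34.3% and 27.2% of VSMC-like cells, yet in 5.98% and 6.88% after thinning, and Hey2 in 67.2% and 56.4%, yet in 13.5% and 16.6%. Per 10000 UMIs a median control VSMC-like cell held 4.94 Hes1 UMIs and a case cell 2.70, with interquartile ranges from 0.752 to 11.4 and from 0 to 7.09.

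**Figure D2:**
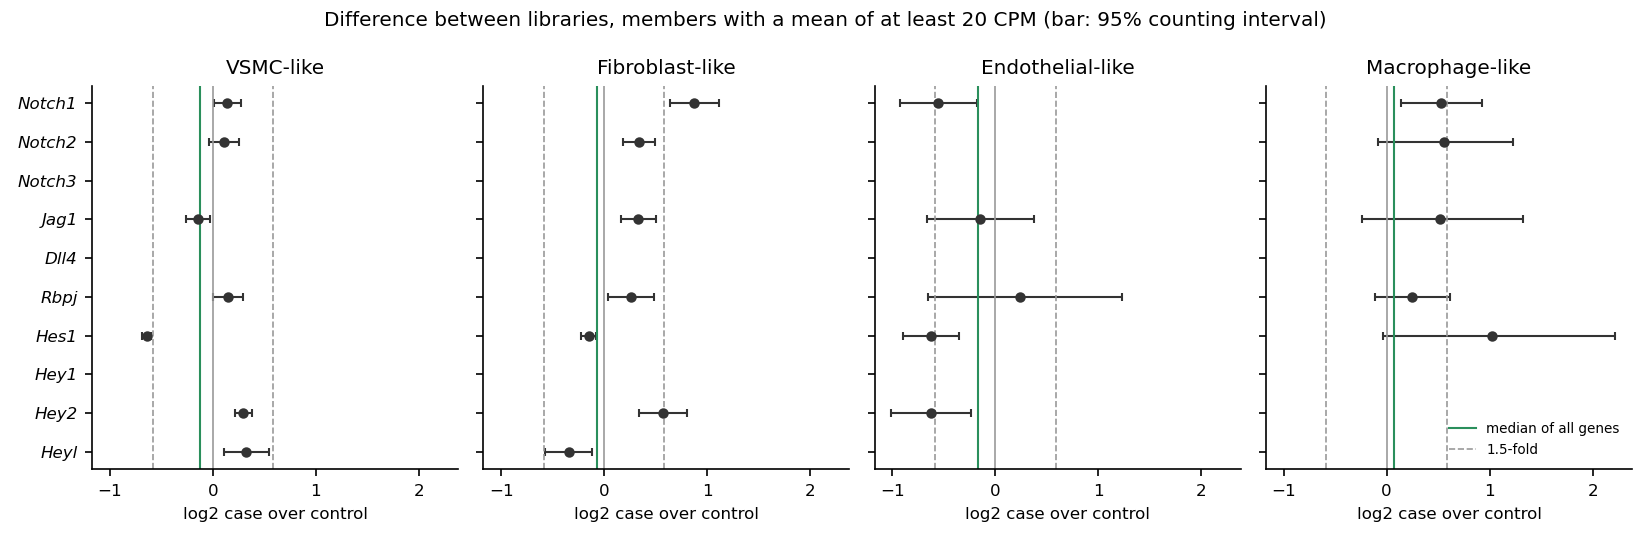
Log2 of case over control CPM (x axis) for the members with a mean of at least 20 CPM, in 4 classes; points are ratios of UMI sums, bars 95% counting intervals, dashed lines 1.5-fold and the green line the median of all genes at that level. Hes1 lies at -0.64 in VSMC-like and -0.63 in endothelial-like cells, and Notch1 at 0.87 in fibroblast-like cells.

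In fibroblast-like cells Notch1 was higher in the case group by 1.83-fold, a log2 change of 0.87 (0.64 to 1.11). It was the 1 member of 7 that was higher by 1.5-fold or more, against 6.11% of all 4419 genes, and 0 of 7 were lower, against 13.4%. Hey2 was at 0.57 (0.34 to 0.81), Notch2 at 0.34 (0.19 to 0.49), Jag1 at 0.33 (0.16 to 0.50), Rbpj at 0.26 (0.03 to 0.49), Hes1 at -0.15 (-0.22 to -0.07) and Heyl at -0.34 (-0.57 to -0.11). The median of the 4419 genes was -0.07. In cells of 3000 to 10000 UMIs Notch1 was at 1.35, Notch2 at 0.79, Hes1 at -0.92 and Hey2 at 0.09. Fibroblast-like cells with 2 or more UMIs of Pi16, an adventitial fibroblast marker, made up 82.6% of the class in the control and 44.1% in the case group. Notch1 was at 20.6 and 24.7 CPM in these cells, control before case, and at 73.8 and 75.4 in the rest. The change was thus 0.26 (-0.13 to 0.65) and 0.03 (-0.32 to 0.40) within the 2 subsets, both below 1.5-fold. Hey2 was at 0.72 (0.43 to 1.02) in cells with Pi16 and at -0.06 (-0.50 to 0.41) in the rest. Heyl was lower in the case group in both, at 40.6 and 23.1 CPM in cells with Pi16 and at 66.8 and 45.6 in the rest, with log2 changes of -0.81 (-1.17 to -0.46) and -0.55 (-0.94 to -0.15). Since Pi16 UMIs depend on depth, the medians of 11915 and 5735 UMIs in the first subset and 9512 and 4706 in the second stand beside these values.

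Endothelial-like cells had 5 members at 20 CPM or more, and 2 of them, Hes1 and Hey2, were lower in the case group by 1.5-fold or more, against 29.6% of all 4998 genes, while 0 were higher, against 18.6%. The changes in log2 were -0.63 (-0.90 to -0.35) for Hes1, -0.63 (-1.01 to -0.23) for Hey2, -0.56 (-0.93 to -0.18) for Notch1, -0.15 (-0.66 to 0.38) for Jag1 and 0.24 (-0.65 to 1.22) for Rbpj. The median of the 4998 genes was -0.17, and with TMM scaling both Hes1, at -0.34, and Hey2 were under 1.5-fold. A UMI of Plvap or Emcn, genes of capillary and venous endothelium, was found in 22.2% of the control cells (12 cells) and 47.7% of the case cells (115 cells). Both genes are among the 7 markers of the endothelial gate, so these shares and this split are not independent of the gate. Among cells without either, Hey2 was at 250.1 CPM (199 to 310.5) in the control and 225 (189 to 266) in the case group, a change of -0.15 (-0.56 to 0.26). Among cells with one, it was at 91.7 (39.6 to 181) and 38.1 (22.9 to 59.5). Hey2 was therefore 2.73-fold and 5.91-fold lower in cells with Plvap or Emcn than in cells without, within the control and the case library.

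Jag1 in the case group followed the same split, at 48.1 CPM (30.8 to 71.6) with Plvap or Emcn and 142 (114 to 176) without, and the 11 and 35 UMIs of the control group gave 126 and 107. Notch1 was at 206 and 122 CPM with and 229 and 177 without, with changes of -0.75 (-1.53 to 0.09) and -0.37 (-0.81 to 0.08), both including 0. Hes1 was lower in the case group in both subsets, at 367 and 233 CPM with and 442 and 311 without, with log2 changes of -0.66 (-1.23 to -0.04) and -0.51 (-0.83 to -0.19). Dll4 in the case group was found in both, from 13 UMIs with and 22 without, at 26.1 (13.9 to 44.6) and 36.4 (22.8 to 55.1). Dissociation genes also differed between the libraries in this class. A list was taken of 18 early-response and heat-shock genes known to be induced while tissue is digested. It summed to 41058 CPM in control and 26629 in case endothelial-like cells. Of 17 genes at 20 CPM or more, 9 were lower by 1.5-fold or more, against 29.6% of all genes, and 0 were higher, against 18.6%. Among those lower were Fos at 4705 and 1981 and Nr4a1 at 602 and 271. The sum of the 18 genes was 43034 and 17814 CPM in cells with Plvap or Emcn and 40531 and 33903 in cells without. Their part in the result was not tested.

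**Figure D3:**
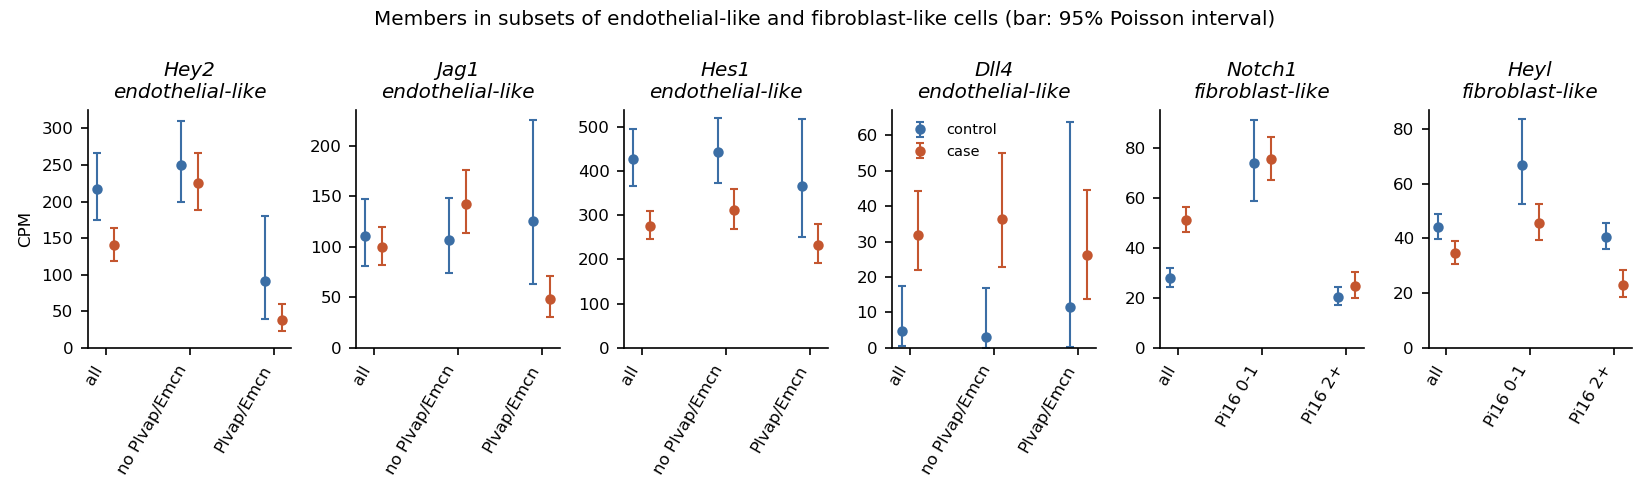
CPM of Hey2, Jag1, Hes1 and Dll4 in all endothelial-like cells and in those without and with a Plvap or Emcn UMI, and of Notch1 and Heyl in all fibroblast-like cells and in those with 0 or 1 and with 2 or more Pi16 UMIs; blue is the control and orange the case library, and bars are 95% Poisson intervals. Notch1 of fibroblast-like cells differs between libraries over all cells (27.9 and 51.1) but lies at 73.8 and 75.4 and at 20.6 and 24.7 within the subsets.

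In macrophage-like cells 1 of 5 members, Hes1, was higher in the case group by 1.5-fold or more, against 21.3% of all 4328 genes, and 0 were lower, against 15.6%. Its log2 change was 1.03 (-0.04 to 2.22), an interval that includes 0. It was at 0.032 with gate limits multiplied by 2, which left 39 control and 106 case cells, and at 0.20 in cells of 3000 to 10000 UMIs. Notch1 was at 0.52 (0.13 to 0.92), Notch2 at 0.55 (-0.09 to 1.23), Jag1 at 0.52 (-0.24 to 1.32) and Rbpj at 0.25 (-0.12 to 0.62), so Notch1 was the 1 member whose interval stayed above 0. In cells of 3000 to 10000 UMIs its change was -0.41, the opposite direction, and the cause was not tested. Schwann-like cells were left out of counts by fold, since 18 and 43 cells gave 41 and 22 UMIs of Hes1 and 25 and 29 of Notch1. The sum of the 18 dissociation genes in them was 25601 CPM in the control and 9952 in the case group.

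Within VSMC-like cells Notch1, Notch2 and Jag1 were lower where contractile genes were higher. Cells of each library were split into tertiles by the share of UMIs from the gate genes Acta2, Tagln, Myh11 and Myl9. Notch1 was at 86.9, 76.4 and 50.6 CPM from the lowest to the highest tertile of the control group and at 104.9, 74.2 and 54.1 in the case group, 1.72-fold and 1.94-fold lower in the highest tertile. Jag1 was at 131, 85.9 and 73.1 and at 109, 80.0 and 61.9, and the log2 difference of the highest from the lowest tertile was -0.84 (-1.05 to -0.63) and -0.82 (-1.02 to -0.61). Notch2 differed by -0.56 (-0.84 to -0.29) and -0.33 (-0.58 to -0.09) and Rbpj by -0.34 (-0.65 to -0.04) and -0.29 (-0.54 to -0.04). Hes1 went the other way, at 551, 772 and 744 CPM in the control and 398, 469 and 492 in the case group, with differences of 0.43 (0.35 to 0.52) and 0.31 (0.22 to 0.39). The same difference for Hey2 was 0.00868 (-0.16 to 0.18) in the control and -0.27 (-0.40 to -0.13) in the case group. Hes1 was lower in the case group in each tertile, by log2 changes of -0.47, -0.72 and -0.59. The lowest tertile of the control group was shallow, with a median of 4197 UMIs against 13149 and 12903.

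**Figure D4:**
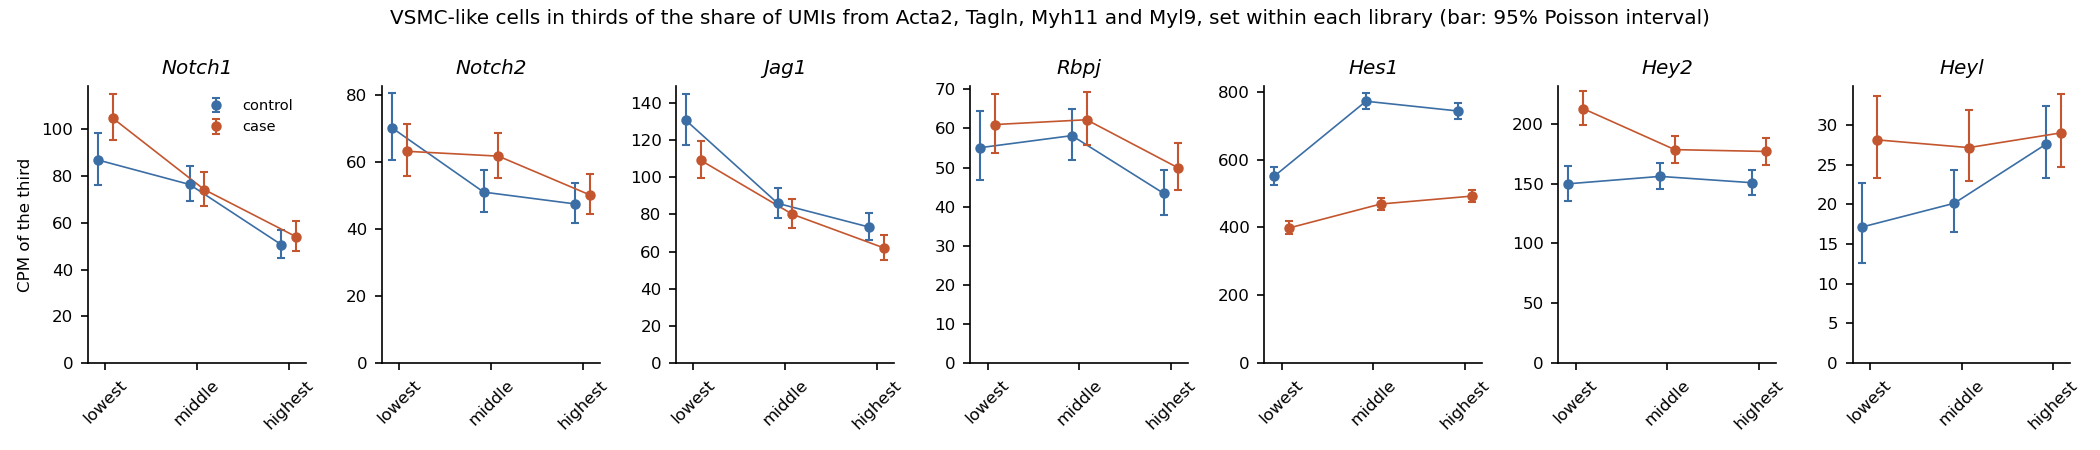
CPM of 7 members in VSMC-like cells split into tertiles of the contractile marker share (x axis, lowest to highest, tertiles set within each library); blue is the control and orange the case library, and bars are 95% Poisson intervals. Notch1 and Jag1 step down from the lowest to the highest tertile in both libraries, and Hes1 of the case library lies under that of the control library in each tertile.

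Hes1 and Notch1 varied in opposite directions with the dissociation genes. VSMC-like cells of both libraries were split into quartiles at 1.26%, 2.02% and 3.03% of UMIs from the 18 genes, and the list holds no Notch member. Hes1 stood at 168, 379, 897 and 1398 CPM over the quartiles of the control group and at 104, 279, 566 and 947 over those of the case group. The last quartile was 8.32-fold and 9.11-fold above the first, or log2 differences of 3.06 (2.92 to 3.20) and 3.19 (3.04 to 3.34). Notch1 stood at 136, 75.5, 42.7 and 29.2 CPM and at 136, 76.3, 46.5 and 34.7, 4.68-fold and 3.92-fold lower in the last quartile. Jag1 was at 145, 79.5, 74.0 and 74.3 and at 127, 60.4, 59.2 and 75.5, with its drop between the first and second quartiles.

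The difference in Hes1 between the libraries was present in every quartile, with log2 changes of -0.69 (-0.89 to -0.50), -0.44 (-0.56 to -0.32), -0.66 (-0.74 to -0.58) and -0.56 (-0.63 to -0.50) and a mean of -0.59. The change of Notch1 was -0.0024, 0.01, 0.12 and 0.25, each with an interval that includes 0. The list itself summed to 23259 CPM in the control and 22060 in the case VSMC-like cells. Of 16 genes at 20 CPM or more, 2 (Jund, Ier3) were lower by 1.5-fold or more, against 14.6% of all genes. The number higher was 0, against 6.09%. The lower count was thus near the background. The 16 genes had a median log2 change of -0.09, against -0.12 for all genes. Within the list Hspa1b was at 2422 and 3025 CPM and Egr1 at 2318 and 2801, control before case. Others were lower in the case group, such as Junb at 818 and 607, Atf3 at 1253 and 933 and Dusp1 at 1882 and 1469. The part of these genes in the change of Hes1 was not tested. The change of Hey2 was above 0 in each quartile, with an interval that included 0 in the second, at 0.13 (-0.03 to 0.30). Its log2 difference of the last from the first quartile was -0.05 (-0.24 to 0.13) in the control and -0.32 (-0.47 to -0.17) in the case group.

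**Figure D5:**
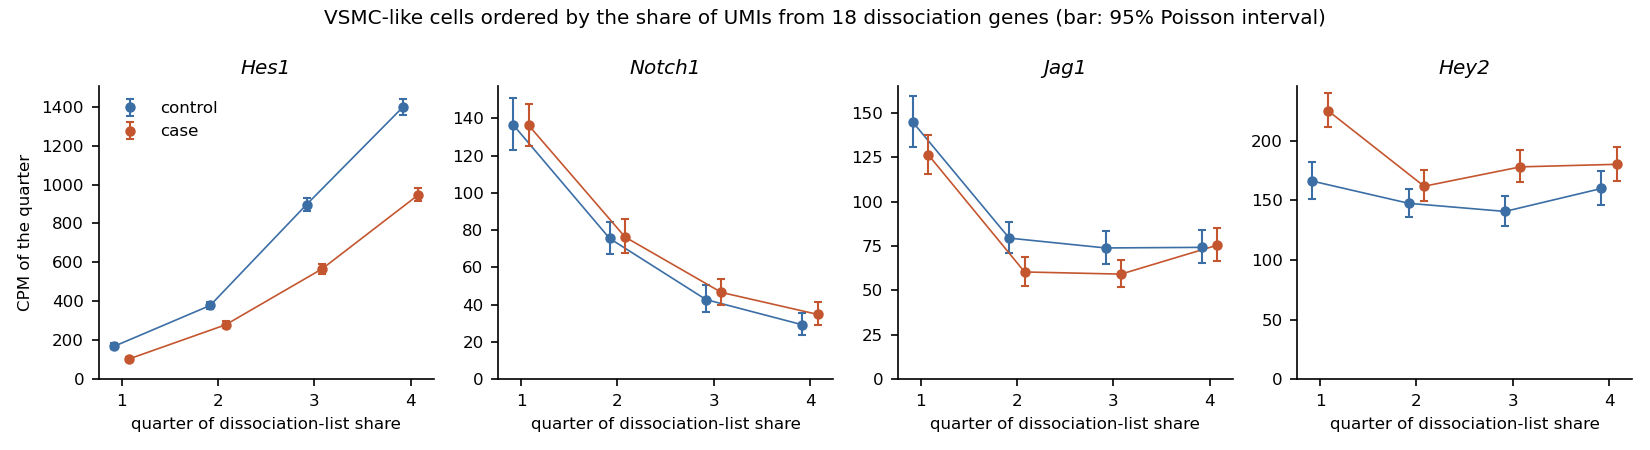
CPM of Hes1, Notch1, Jag1 and Hey2 in VSMC-like cells in quartiles of the share of UMIs from 18 dissociation genes (x axis, 1 lowest to 4 highest, limits set over both libraries); blue is the control and orange the case library, and bars are 95% Poisson intervals. Hes1 goes from 168 to 1398 CPM in the control library and Notch1 from 136 to 29.2, and the case library lies under the control library for Hes1 in each quartile.

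VSMC-like cells with a Notch1 UMI, 413 in the control and 722 in the case group, held 474 and 315 CPM of Hes1, and those without held 902 and 523. Hes1 was thus 1.90-fold and 1.66-fold lower where the receptor was found, and Fos differed as well, at 1439 and 1463 CPM with and 3049 and 2786 without. Hey2 was higher in cells with Notch1, by log2 differences of 0.23 (0.11 to 0.36) and 0.38 (0.27 to 0.49), and so was Jag1, by 0.28 (0.11 to 0.45) and 0.40 (0.23 to 0.57). Cells with a Notch1 UMI were deeper, with medians of 14612 and 6067 UMIs against 10341 and 5218. Spp1, an osteopontin gene of synthetic VSMCs, was at 1000 CPM or more in 66 control and 140 case VSMC-like cells. In them Jag1 was at 133 and 146 CPM against 87.9 and 78.3 in the rest, and Hes1 at 420.3 and 375 against 730.4 and 462. The dissociation genes differed as well, summing to 18649 and 19827 CPM against 23509 and 22174 in the rest.

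Of 53 other genes of the pathway, 50 were measured. In VSMC-like cells 24 reached 20 CPM, of which 3 were higher and 3 lower in the case group by 1.5-fold or more, against 6.09% and 14.6% of all genes, so the lower count was at the background. Their median was 0.10 against -0.12 for all genes. Those lower were the ligand Dll1, at 25.5 and 16.5 CPM, the gamma-secretase subunit gene Psenen, at 109.7 and 59.1, and Hes6, a relative of Hes1, at 25.3 and 15.8. Among those higher were Snw1, which encodes an RBPJ-binding coactivator, at 25.8 and 46.3, and Cir1, which encodes a corepressor, at 95.8 and 158.

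Endothelial-like cells had 28 of these genes at 20 CPM or more, with 3 higher and 9 lower, against 18.6% and 29.6% of all genes, and a median of -0.09 against -0.17. The lower count was thus near the background. The arterial connexin genes Gja5, at 388 and 143 CPM, and Gja4, at 93.9 and 41.7, were among the lower ones. So were Nrarp, a feedback inhibitor of Notch, at 60.2 and 32.6, the protease genes Adam10, at 311 and 181, Adam17, at 77.1 and 47.1, and Psenen, at 108 and 39.9. Lfng, Mib1 and Hdac1 were the remaining 3, of which Lfng and Mib1 rested on 11 control UMIs each. Maml1, Crebbp and Snw1, all coactivators, were higher, on 7, 62 and 18 control UMIs. Gja5 was lower in the case group also in cells without Plvap and Emcn, at 476 and 238 CPM, and stood at 57.3 and 28.1 in cells with them. Dll1 was at 128 and 115 CPM in endothelial-like cells with an interval of the change from -0.62 to 0.34, and Notch4, the endothelial receptor, at 19.3 and 17.2 from 8 and 19 UMIs.

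Fibroblast-like cells had 18 of the 50 genes at this level, with 2 higher (Cir1 and Efnb2) and 1 lower (Psenen), against 6.11% and 13.4% of all genes. Efnb2, the arterial ephrin gene, was at 33.4 CPM in the control and 67.5 in the case group. Macrophage-like cells had 19, with 5 higher and 2 lower, against 21.3% and 15.6% of all genes, which is near the background. Among these 50 genes, which leave out the members, the gene with the highest mean UMI level of its role over both libraries was the coactivator Crebbp in all 5 classes. The ligand was Dll1, which in Schwann-like cells rested on 1 UMI per library. Among corepressors it was Ncor1 in all but fibroblast-like cells, where it was Hdac1. Among the other targets it was Pdgfrb in VSMC-like cells, Efnb2 in macrophage-like cells and Myc elsewhere. Among proteases it was Psenen in VSMC-like and fibroblast-like cells, Adam17 in macrophage-like cells and Adam10 in the other two. For turnover it was Dtx3 in VSMC-like cells, Numbl in fibroblast-like and Schwann-like cells and Fbxw7 elsewhere. For glycosyltransferases it was Poglut1 in VSMC-like and macrophage-like cells, Rfng in fibroblast-like and Schwann-like cells and Lfng in endothelial-like cells. Rfng had 3 UMIs in case Schwann-like cells, and Poglut1 a mean of 8.53 CPM in macrophage-like cells, so these 2 ranks rest on few UMIs.

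The 10 profiles of 5 classes by 2 libraries were also used to find the genes whose levels ran most like each member, by Pearson's r of log2(CPM + 1) among 5075 genes with 50 CPM or more in some profile. Profiles of a library share its depth and its free RNA, so r is a description. Rbpj was nearest to C5ar1 and Ms4a7 (0.99 and 0.98), both macrophage genes. Dll4 was nearest to Flt1 and Gpr4 (0.93 and 0.92), and Flt1 encodes an endothelial VEGF receptor. Dll4 reached 20 CPM only in case endothelial-like cells, at 31.7 CPM, and had 0 UMIs in macrophage-like and Schwann-like cells. Its r thus rests mainly on that profile and adds nothing on where Dll4 is expressed. Hes1 was nearest to Htra1 and Tob1 (0.98 and 0.97), Hey2 to Gadd45g and Pigp (0.96 each), Heyl to Adamts15 and Sod3 (0.95 each), Notch1 to Alcam and Fkbp1a (0.96 and 0.94), Notch2 to Zfp703 and Trps1 (0.93 each), and Jag1 to Myh9l1 and Rab3d (0.95 each). Notch3 and Hey1 were under 20 CPM in each profile and were not compared.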

How the data were processed

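The authors deposited raw UMI counts of each gene in each barcode, made with Cell Ranger 3.1.0 (processing notes: build Rnor_6.0, Seurat), and whether they were down-sampled is not given in the sources used here. Barcodes were assigned to libraries by the numbers of barcodes stated for each. Cells were kept with at most 20% mitochondrial UMIs, log10 UMIs and genes within 2 SD of the library mean, genes within 3 robust SD of a fit on UMIs, and at least 1000 UMIs, which left out a further 513 control and 40 case barcodes. A class needed a share of UMIs from its markers of at least 0.4% (VSMC, fibroblast), 0.1% (endothelial) or 0.15% (macrophage, Schwann), with 3 or more UMIs from 2 or more genes. These limits were set after marker shares had been seen. Within 25% of the VSMC limit lay 97 control and 114 case cells, and of the fibroblast limit 31 and 104. The numbers were 12 and 31 for the endothelial, 2 and 6 for the macrophage and 3 and 21 for the Schwann limit. The last stand beside only 18 and 43 Schwann-like cells. Cells passing several gates (106 control, 140 case) were left out as possible doublets, and no doublet caller was run; 99 and 262 cells passed none. The median VSMC-like cell held 3 and 1 fibroblast gate UMIs, and the median fibroblast-like cell 6 and 2 VSMC gate UMIs.

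UMIs were summed per class and given as CPM with Poisson intervals, shares with Clopper-Pearson intervals, and ratios with exact conditional binomial intervals, at 95%. A count of 0 allows up to 3 UMIs. Thinned shares are expected values for 1000 UMIs drawn per cell. A gene counted by fold had a mean of 20 CPM or more and a ratio of 1.5 or more. Members, gene lists and subsets were chosen with earlier results of these data known. The text names the 10 members in each class and pathway genes past 1.5-fold in VSMC-like or endothelial-like cells. It also names the gene with the most UMIs of each role, the 2 genes most like each member and up to 4 dissociation genes. Dissociation genes beyond 4, and genes named for fibroblast-like cells and within subsets, were added after their values were seen. Maml3, Ep300 and Kat2b were not analysed here. A further gene of the pathway list counts in the totals and is not reported here by name. The intervals and the fold rule were tested on simulated Poisson sums of VSMC-like and endothelial-like cells. This simulation holds no gates, subsets, thinning or spread between cells. Python 3.11.15, scipy 1.17.1 and edgeR 4.0.16 (TMM factors) were used. Alternatives covered the cell filter, UMI limits, gates, doublets, scaling and the level minimum, and 4 on depth, dissociation genes and subsets were added after the data had been seen.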

Additional observations from a re-analysis of the deposited data

Results flagged for a closer look

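The direction of the change in case over control differed between classes for several members, each with counting intervals on opposite sides of 0. The difference between classes was not tested, since there was 1 library per group. Notch1 was higher in VSMC-like, fibroblast-like and macrophage-like cells and lower in endothelial-like cells of the case group, and the log2 changes differed by 0.70, 1.43 and 1.08. The macrophage value was -0.41 in cells of 3000 to 10000 UMIs, the fibroblast value 0.26 and 0.03 within the Pi16 subsets, and both endothelial subsets by Plvap or Emcn had intervals that include 0. Hey2 was higher in VSMC-like and fibroblast-like cells and lower in endothelial-like cells, with differences of 0.92 and 1.20. The fibroblast value was -0.06 (-0.50 to 0.41) in cells with fewer than 2 Pi16 UMIs and 0.09 in cells of 3000 to 10000 UMIs, and the endothelial value -0.15 (-0.56 to 0.26) without Plvap or Emcn. Jag1 was higher in fibroblast-like and lower in VSMC-like cells, with a difference of 0.47, and with TMM scaling its VSMC value was -0.02. Heyl was higher in VSMC-like and lower in fibroblast-like cells, with a difference of 0.67. Dll4 was higher in endothelial-like and lower in VSMC-like cells, with a difference of 3.46 that rests on 2 control endothelial UMIs.

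Cells that passed no gate entered no comparison. Among them 14 control and 42 case cells held 2 or more UMIs of the microvascular mural genes Rgs5, Kcnj8, Abcc9, Npy1r and Higd1b. Heyl stood at 152.9 CPM (102 to 221) in the case cells, from 28 UMIs, above its level in any gated class, and at 0 UMIs in the control cells. Notch3 stood at 38.2 CPM (15.4 to 78.8) in the same case cells, from 7 UMIs, above its VSMC level of 11.6. In the control cells it stood at 0 UMIs. The control cells held 109251 UMIs of all genes and the case cells 183102. A count of 0 allows up to 3 UMIs, so absence of Notch3 from the control cells is not shown. Whether Notch3 differed between the libraries in these cells was not tested.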

How the results depend on the processing

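No paired analysis was possible because each group had 1 library. Of 343 changes and counts of members recomputed under 14 alternatives, 312 stayed within the counting interval of the change reported, or within 1.5 times the count, and 31 did not. No change counted as past 1.5-fold turned direction. Smaller changes of members at 20 CPM or more did turn under some alternatives. In fibroblast-like cells Rbpj reached -0.08, Hey2 -0.06 and Hes1 0.02. In endothelial-like cells Rbpj reached -0.43 and Jag1 0.41. Notch1 reached -0.41 in macrophage-like and Notch2 -0.05 in VSMC-like cells. Under this minimum, for example, Notch2 in endothelial-like cells turned from 0.71 to -0.09 in cells of 3000 to 10000 UMIs. Notch3 in fibroblast-like cells turned from 1.37 to -0.06 in cells with fewer than 2 Pi16 UMIs. Hes1 in VSMC-like cells was at -0.51 with TMM scaling, -0.87 in cells of 3000 to 10000 UMIs and -0.59 as the mean within quartiles of the dissociation list, and in endothelial-like cells at -0.34 with TMM. Hey2 in endothelial-like cells was at -1.27 with and -0.15 without Plvap or Emcn. Notch1 in fibroblast-like cells was at 1.35 in cells of 3000 to 10000 UMIs, 0.26 with 2 or more Pi16 UMIs and 0.032 with fewer. In cells of 3000 to 10000 UMIs, where 255 control and 2212 case VSMC-like cells were left, Notch1 in VSMC-like cells was at 0.81 and Hes1 in fibroblast-like cells at -0.92. The cause of these shifts was not tested.

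The number of members past 1.5-fold moved as follows. The share of all genes past 1.5-fold under each alternative is not given here. These counts thus have no background beside them and are not read as results about the members. With TMM it was 0 lower in VSMC-like cells, 0 lower in endothelial-like cells and 2 higher in fibroblast-like cells. With 1 UMI or more in each library as the minimum it was 2 lower in VSMC-like cells, and 3, 2 and 2 higher in fibroblast-like, endothelial-like and macrophage-like cells. With a minimum of 50 CPM it was 0 higher in fibroblast-like and in macrophage-like cells. In cells of 3000 to 10000 UMIs it was 1 higher in VSMC-like cells, 2 higher and 1 lower in fibroblast-like cells and 0 higher in macrophage-like cells. With gate limits multiplied by 2 it was 1 higher and 0 lower in endothelial-like cells, and with limits divided by 2 it was 2 higher in fibroblast-like and 2 in macrophage-like cells. Endothelial-like, macrophage-like and Schwann-like cells of the control group, at 54, 42 and 18 cells, limit what could be detected there.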

Other observations

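Cells that passed both the VSMC and the fibroblast gate, 95 in the control and 102 in the case group, were in no class. Hes1 was at 499.97 and 369 CPM in them, a log2 change of -0.44 (-0.66 to -0.22), Hey2 at 62.3 and 104 with a change of 0.74 (0.21 to 1.29), and Notch1 at 40.6 and 71.5 with a change of 0.82 (0.16 to 1.51). The medians were 2379 and 9479 UMIs, so these cells were shallow in the control and deep in the case group, the reverse of the other classes.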
